A study of Rattus norvegicus with 6 samples.

Results

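The interleukins, the tumour necrosis factor (TNF) superfamily and the colony-stimulating factors are the main families of secreted or membrane-bound signals between leukocytes, and their receptors, decoys and binding proteins set how strongly a cell can respond. They were followed here in rat kidney transplants. Members were all probes of the array with a single gene symbol that starts with Il and a digit, Tnf or Csf, without Il10 and Il24. This gave 51 genes, each with 1 probe, of 5990 genes with a named probe: 23 ligands, 26 receptors and 2 others, the binding protein Il18bp and Tnfaip1, a gene named for its induction by TNF. Family members without a probe named in the annotation used here, Il1rn, Il4, Il17a, Il33, Il2rg, Il4r, Il7r, Csf2, Csf1r and Csf3r among them, were not analysed here.

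Of the 6 arrays, each with 26857 probes and 1 sample, 3 held tolerated and 3 held syngeneic grafts. Tolerated grafts were LEW.1W kidneys (MHC haplotype RT1u) in LEW.1A recipients (RT1a) made tolerant with antibodies against the donor's class II molecules. In syngeneic grafts, donor and recipient were both LEW.1A. All grafts were removed on day 100. For the allogeneic transplants the donor kidneys were 8 to 12 weeks old and the recipients' own kidneys were taken out on day 7. The strains differ at the MHC and otherwise have the same genetic background. Donor haplotype, mismatch and antibody treatment differ together between the groups and cannot be told apart. The labels do not state that each array came from a separate animal, so p-values measure only the spread between these samples.

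As background, interleukins bind paired receptor chains. Many of these chains signal through Janus kinases and STAT factors, while the receptors of IL-1 and IL-18 use the adaptor MyD88 and lead to NF-kB. TNF family ligands bind receptors that either recruit TRAF proteins and NF-kB or carry a death domain. Colony-stimulating factors drive the growth and survival of myeloid cells, and several of them share a receptor chain with IL-3 and IL-5. In a kidney, tubule cells as well as infiltrating leukocytes make and sense these signals.

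Array brightness differed between the groups as well as within them. Median raw intensities were 745 to 991 in tolerated grafts and 421 to 707 in syngeneic grafts, without overlap. Brightness before normalization therefore cannot be told apart from group. All levels below are log2 values of quantile-normalized intensity, and changes are tolerated minus syngeneic. Arrays correlated at 0.948 to 0.967 within groups and 0.878 to 0.945 between groups. Kidney markers were bright on all arrays (Umod averaged 20.39 ± 0.28 in tolerated grafts and 20.79 ± 0.09 in syngeneic grafts (SD, n = 3 each)), and 4 of 11 tested kidney markers, Kl, Lrp2, Slc34a1 and Podxl, were lower in tolerated grafts. All 10 tested macrophage and dendritic cell markers were higher, with summed intensities of 2775440 to 3050340 in tolerated grafts and 241902 to 888686 in syngeneic grafts. Of the other leukocyte lists, 6 of 9 tested T cell markers, 2 of 3 B cell markers, 4 of 6 natural killer cell markers, 1 of 3 neutrophil markers and 0 of 4 mast cell markers passed as higher and none as lower. The summed T cell markers ran from 39434.9 to 58888.5 in tolerated grafts and from 6245.5 to 21255 in syngeneic grafts. Such sums weigh the brightest probes of a list most, as Lyz2 among macrophage markers (mean level 20.52 in tolerated grafts). The part of these cells in the results below was not tested. In such whole-tissue RNA, fewer cells of a type and less RNA per cell cannot be told apart. In the macrophage, T cell and natural killer lists, syngeneic replicate 3 was the syngeneic array closest to the tolerated ones, and results that rest on it are given with and without it.

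Of the 51 members, 38 were bright enough to test and 13 were not, their mean level lying under the lower quartile of all probes (7.76). By limma with Benjamini-Hochberg adjustment at 0.05 over all 20142 tested probes, 12 members differed between the groups. Higher in tolerated grafts were Il2rb, Tnfrsf1b, Il1b, Il18bp, Il6r, Tnfrsf1a, Il10ra, Il1r2, Tnfrsf12a and Il18, and lower were Csf2rb and Tnfrsf11b. These 12 were 31.6% of the 38, against 25.2% of all tested probes and 32.7% of the 4955 tested probes that name a gene, so the share of members that changed was close to that of named genes. Members called higher made up 26.3%, against 12.4% of all tested probes and 15.5% of named genes. Members called lower made up 5.26%, against 12.8% of all tested probes and 17.2% of named genes. In 24 members (63.2%) the 3 values of the groups did not overlap, against 47.3% of all tested probes. The share without overlap among named genes was not computed, here and below. The median change over the 38 was 1.09 and over all 51 members 0.41, against -0.02 over all tested probes and -0.04 over named genes.

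**Figure D1:**
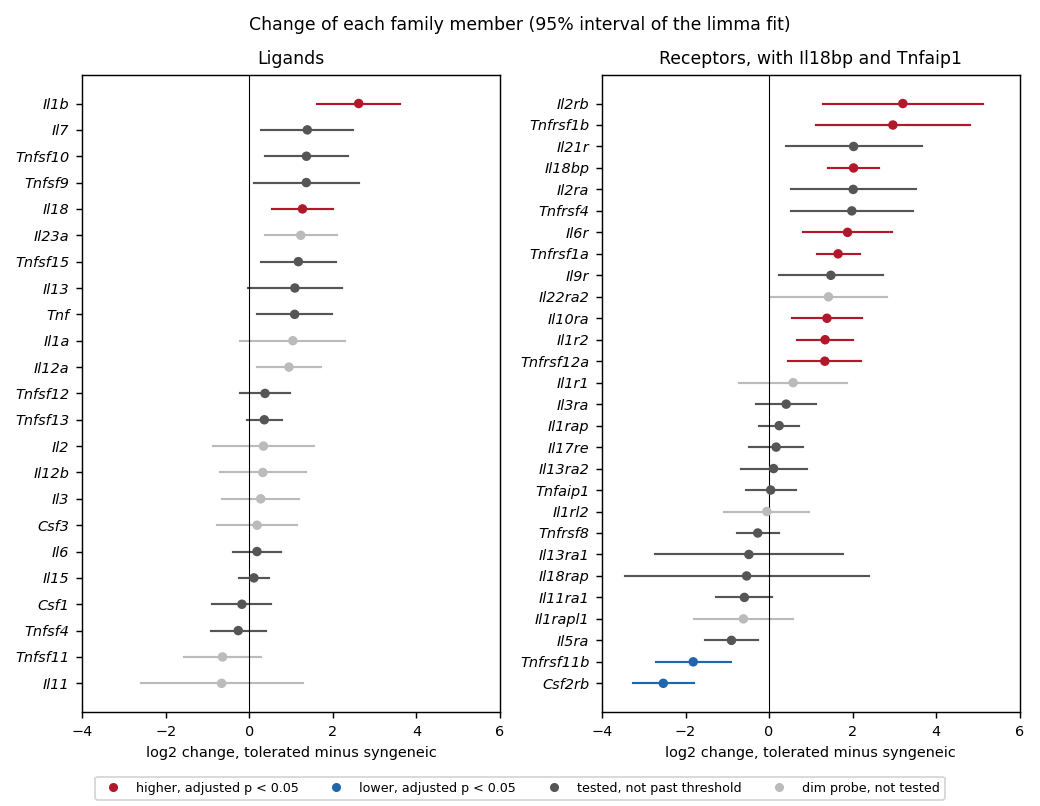
Log2 change (tolerated minus syngeneic) of each of the 51 members with the 95% interval of the limma fit, ligands on the left, receptors with Il18bp and Tnfaip1 on the right; red marks higher, blue lower, dark grey tested without a call and light grey dim probes that were not tested. Il2rb has the highest change at 3.20 and Csf2rb the lowest at -2.53.

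Ligands and receptors were then set side by side. Among ligands, 14 of 23 were bright enough to test, 12 of these had a positive change and 2 passed the test, Il1b and Il18 (14.3%). Among receptors, 22 of 26 were tested, 15 had a positive change and 9 passed, 7 of them higher and 2 lower (40.9%). Of all tested probes 25.2% passed, and of named genes 32.7%. The median change was 1.09 over tested ligands and 0.87 over tested receptors. Over all members of each kind, dim ones included, it was 0.38 for ligands and 0.49 for receptors, so the order of these medians turned without the filter. It also turned with a filter at the median level (1.27 for ligands and 1.36 for receptors), with arrays scaled to equal medians (0.92 and 1.26), and without tolerated replicate 2 (0.79 and 1.29), syngeneic replicate 1 (0.79 and 1.08) or syngeneic replicate 3 (1.05 and 1.11). With arrays scaled to equal medians the small positive changes of the ligands Il6 and Il15, the receptors Il17re and Il13ra2 and of Tnfaip1 turned negative, to -0.04, -0.03, -0.08, -0.12 and -0.11, none of them called. The groups did not overlap in 8 of 14 tested ligands (57.1%) and in 15 of 22 tested receptors (68.2%), against 47.3% of all tested probes. The counts of ligands and receptors that passed moved as well. They were 1 of 14 and 2 of 22 without tolerated replicate 1, and 1 of 14 and 5 of 20 without syngeneic replicate 1. With a filter at the median level they were 5 of 9 and 11 of 16.

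The IL-1 and IL-18 branch held both ligands that changed. Il1b encodes the inflammatory cytokine IL-1 beta, which myeloid cells make as a precursor. Its levels were 15.47, 15.27 and 15.06 in tolerated grafts, against 11.91, 12.57 and 13.45 in syngeneic grafts. All 3 tolerated grafts lay above all 3 syngeneic grafts, by 6.14-fold (95% interval 3.08 to 12.2) on average (log2 change 2.62 ± 0.40, limma adjusted p = 0.0112). Il18 encodes a related cytokine that epithelial cells also make and that promotes interferon gamma production. Its levels were 13.44, 13.11 and 13.46 in tolerated grafts, against 11.95, 11.61 and 12.64 in syngeneic grafts. The groups were again apart, and the mean was higher in tolerated grafts by 2.41-fold (95% interval 1.45 to 4.01) (limma adjusted p = 0.0304). The other IL-1 ligand, Il1a, was a dim probe and was not tested, at 8.12, 7.56 and 7.32 in tolerated grafts, against 7.00, 7.34 and 5.54 in syngeneic grafts.

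Transcripts of a binding protein and a decoy receptor of the same branch were higher as well. Il18bp encodes the secreted protein that binds IL-18 and keeps it from its receptor. Its levels were 14.04, 14.00 and 13.97 in tolerated grafts, against 11.65, 11.82 and 12.47 in syngeneic grafts. The 3 tolerated values were nearly alike and all lay above the highest syngeneic value. The difference was 4.06-fold (95% interval 2.66 to 6.19) (log2 change 2.02 ± 0.25, limma adjusted p = 0.00660). Il1r2 encodes the decoy receptor, which binds IL-1 without signalling. It measured 9.60, 9.09 and 9.31 in tolerated grafts, against 8.38, 8.05 and 7.54 in syngeneic grafts, and the change was 2.53-fold (95% interval 1.60 to 4.02) (limma adjusted p = 0.0209). Here syngeneic replicate 3 was the lowest array, the only one of the 10 members called higher in which it was not the highest syngeneic value.

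Of the signalling receptor chains of this branch, Il1rap and Il18rap were tested and neither passed. The adaptor gene Myd88, from the signalling list below, was higher by 0.82 ± 0.15 (limma adjusted p = 0.0175). With an array left out, that call held only without syngeneic replicate 3. Il1rap, the accessory chain that the IL-1 receptor needs to signal, had 11.40, 10.90 and 11.22 in tolerated grafts, against 10.92, 11.08 and 10.79 in syngeneic grafts, with a change of 0.24 ± 0.19 (limma adjusted p = 0.407). The groups overlapped. Il1r1, the signalling receptor itself, was a dim probe at 6.67, 7.43 and 8.26 in tolerated grafts, against 6.69, 6.28 and 7.66 in syngeneic grafts and was not tested. Il18rap, the accessory chain of the IL-18 receptor, scattered widely in both groups, at 6.85, 9.43 and 6.22 in tolerated grafts, against 10.08, 6.68 and 7.36 in syngeneic grafts (change -0.54 ± 1.19, limma adjusted p = 0.773). Its mean level of 7.77 barely passed the threshold for dim probes (7.76). Il1rl2 and Il1rapl1, further receptors of the IL-1 family, were dim and not tested, with changes of -0.05 and -0.61.

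**Figure D2:**
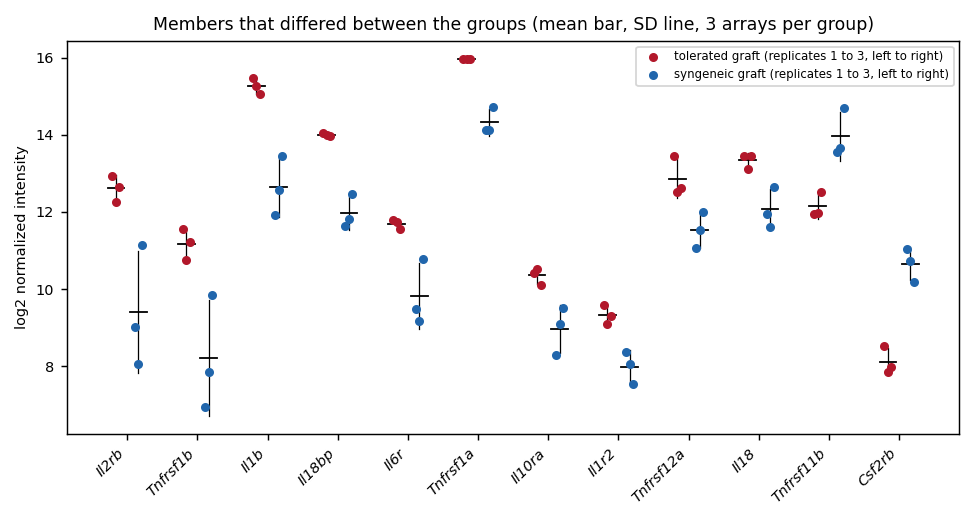
Log2 normalized intensity of the 12 members that differed, by array; points are replicates 1 to 3 from left to right, tolerated grafts in red left of syngeneic grafts in blue, with the mean as a bar and the SD as a line (n = 3 each). In none of the 12 do the groups overlap, and in Il2rb and Tnfrsf1b syngeneic replicate 3 stands well above the other syngeneic grafts.

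Among TNF superfamily genes with a symbol that starts with Tnf, 4 of 6 tested receptors changed, 3 higher and 1 lower. By limma, 0 of 7 such tested ligands passed, although 4 of the 7 had an unadjusted p under 0.05. These shares of 66.7% and 0% stand against 25.2% of all tested probes and 32.7% of named genes. The groups did not overlap in 5 of the 6 receptors and 5 of the 7 ligands, against 47.3% of all tested probes. These counts leave out the superfamily's genes under other names, given further below. Of those, the ligands Cd40lg, Ltb and Faslg and the receptor Ltbr passed as higher, while Lta and Fas did not pass. Tnfrsf1a encodes TNF receptor 1, the death-domain receptor found on most cells. It measured 15.97, 15.97 and 15.97 in tolerated grafts, against 14.11, 14.13 and 14.71 in syngeneic grafts. The tolerated values were equal to the second decimal and every syngeneic value was lower, a difference of 3.14-fold (95% interval 2.20 to 4.49) (log2 change 1.65 ± 0.21, limma adjusted p = 0.00701). Tnfrsf1b encodes TNF receptor 2, found mainly on leukocytes and endothelium. It measured 11.57, 10.75 and 11.21 in tolerated grafts, against 6.94, 7.84 and 9.86 in syngeneic grafts. The syngeneic grafts spread widely, replicate 1 lying under the threshold for dim probes and replicate 3 nearest to the tolerated grafts, and the mean difference was 7.80-fold (95% interval 2.17 to 28.0) (limma adjusted p = 0.0372). Tnfrsf12a encodes the receptor of the ligand TWEAK and is known to be induced in injured epithelium. It measured 13.46, 12.52 and 12.62 in tolerated grafts, against 11.08, 11.53 and 11.99 in syngeneic grafts, a difference of 2.52-fold (95% interval 1.38 to 4.61) (limma adjusted p = 0.0421).

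The TNF receptor that was lower is a decoy. Tnfrsf11b encodes osteoprotegerin, a secreted receptor that binds the ligands RANKL and TRAIL. It measured 11.94, 11.98 and 12.52 in tolerated grafts, against 13.54, 13.66 and 14.69 in syngeneic grafts. All tolerated grafts lay below all syngeneic grafts, and the mean was lower by 3.52-fold (95% interval 1.89 to 6.54) (log2 change -1.82 ± 0.36, limma adjusted p = 0.0204). Tnfrsf4, the costimulatory receptor OX40 of activated T cells, did not pass at 10.42, 10.69 and 10.97 in tolerated grafts, against 8.76, 7.51 and 9.87 in syngeneic grafts (change 1.98 ± 0.59, limma adjusted p = 0.0585). Tnfrsf8, known as CD30, had a change of -0.27 ± 0.20 and overlapping groups (limma adjusted p = 0.378).

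Among TNF ligands, Tnf itself measured 9.39, 10.32 and 9.56 in tolerated grafts, against 8.09, 9.02 and 8.91 in syngeneic grafts. The groups did not overlap, yet the change of 1.09 ± 0.36 missed the threshold (limma adjusted p = 0.0797). Tnfsf10, the death ligand TRAIL, measured 10.79, 10.81 and 10.93 in tolerated grafts, against 8.64, 9.54 and 10.25 in syngeneic grafts, with a change of 1.37 ± 0.41 (limma adjusted p = 0.0580). Here too the groups were apart and the syngeneic arrays carried most of the spread. Tnfsf9 (4-1BB ligand) and Tnfsf15 (TL1A), both costimulatory ligands, had changes of 1.36 ± 0.51 and 1.17 ± 0.36 (limma adjusted p = 0.105 and 0.0638). Tnfsf12, which encodes TWEAK, had a change of 0.38 ± 0.24, Tnfsf13, the B cell factor APRIL, one of 0.36 ± 0.17, and Tnfsf4, the ligand of OX40, one of -0.26 ± 0.27 (limma adjusted p = 0.303, 0.182 and 0.508). Tnfsf11, the ligand RANKL that osteoprotegerin binds, was dim and not tested, at 7.81, 6.56 and 7.60 in tolerated grafts, against 7.80, 8.25 and 7.84 in syngeneic grafts. Tnfaip1 had a change of 0.04 ± 0.24 (limma adjusted p = 0.924).

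Promoter sequence is shown for 3 members that were higher, the cytokine gene Il1b and both TNF receptor genes, so that the start of a ligand gene can be read beside those of the receptors. Each run is the 250 bases before the gene's start in the RefSeq annotation of assembly GRCr8, written 5′ to 3′ on the gene's strand. Capitals mark matches to 5 motifs searched on both strands: GGGANNTTCC for NF-kB, TTCNNNGAA for STAT sites, GAAANNGAAA for interferon response elements, TGANTCA for AP-1 and TATAAA for the TATA box.
Il1b, chr3:137036582-137036831, minus strand: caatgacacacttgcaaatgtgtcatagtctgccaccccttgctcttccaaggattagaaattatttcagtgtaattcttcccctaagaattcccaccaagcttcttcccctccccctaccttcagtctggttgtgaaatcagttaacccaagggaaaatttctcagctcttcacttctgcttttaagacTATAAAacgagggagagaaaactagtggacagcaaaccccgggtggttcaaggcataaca
Tnfrsf1a, chr4:159836869-159837118, plus strand: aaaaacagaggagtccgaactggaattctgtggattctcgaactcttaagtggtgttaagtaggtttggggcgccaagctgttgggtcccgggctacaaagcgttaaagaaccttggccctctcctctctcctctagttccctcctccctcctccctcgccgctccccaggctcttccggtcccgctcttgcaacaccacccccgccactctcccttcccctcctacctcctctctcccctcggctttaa
Tnfrsf1b, chr5:162387412-162387661, minus strand: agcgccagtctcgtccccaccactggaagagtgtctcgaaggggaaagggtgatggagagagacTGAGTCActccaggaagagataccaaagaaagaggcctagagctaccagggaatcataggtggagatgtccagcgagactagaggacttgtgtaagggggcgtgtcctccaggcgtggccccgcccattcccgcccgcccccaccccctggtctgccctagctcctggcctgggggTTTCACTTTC
The Il1b window held the TATAAA letters 60 to 55 bases before the start. The Tnfrsf1a window held none of the 5 motifs. The Tnfrsf1b window held TGAGTCA 186 to 180 bases before the start and, in its last 10 bases, TTTCACTTTC, which is the interferon response letters read on the other strand.

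The RefSeq table used here held a start for 34 members, 8 of the 12 that changed among them, in 35 windows. The TATA letters were in 9 of the 35 (25.7%), against 12.9% of 33469 windows of all genes, and AP-1 letters in 5 (14.3%), against 6.34%. Il6 was the 1 member window with the NF-kB letters (2.86%), against 1.08% of all windows. The STAT letters were in 1 member window, that of Tnfrsf12a (2.86%), against 7.67%, and the interferon letters in 2 (5.71%), those of Tnfrsf1b and Il1rap, against 3.41%. A match describes the letters in these windows and is not a measured binding site.

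Chains of the receptors for IL-2, IL-15, IL-6 and IL-10 were higher. Of their ligands, Il15 and Il6 did not pass, Il2 was dim and not tested, and Il10 was left out of the members. Il2rb encodes the signalling chain shared by IL-2 and IL-15, found on T cells and natural killer cells. It measured 12.92, 12.25 and 12.65 in tolerated grafts, against 9.02, 8.06 and 11.15 in syngeneic grafts. Every tolerated graft was above every syngeneic graft, and the mean difference was the largest of any member at 9.20-fold (95% interval 2.43 to 34.8) (log2 change 3.20 ± 0.78, limma adjusted p = 0.0336). Il2ra, the high-affinity IL-2 chain of activated and regulatory T cells, measured 10.11, 10.47 and 10.34 in tolerated grafts, against 6.88, 9.12 and 8.89 in syngeneic grafts and missed the threshold (change 2.01 ± 0.61, limma adjusted p = 0.0599). On the ligand side, Il15 was nearly level at 13.33, 13.28 and 13.31 in tolerated grafts, against 13.17, 13.33 and 13.10 in syngeneic grafts, with a change of 0.11 and a 95% interval of -0.25 to 0.47 (limma adjusted p = 0.618). Il2 was a dim probe and was not tested, at 8.21, 7.18 and 6.91 in tolerated grafts, against 7.81, 6.37 and 7.10 in syngeneic grafts.

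Il6r encodes the chain that binds IL-6. It measured 11.79, 11.74 and 11.55 in tolerated grafts, against 9.50, 9.17 and 10.78 in syngeneic grafts, and the groups did not overlap (3.68-fold (95% interval 1.76 to 7.67), limma adjusted p = 0.0288). Il6 itself measured 8.36, 8.08 and 8.81 in tolerated grafts, against 8.14, 8.14 and 8.42 in syngeneic grafts, with overlapping groups and a 95% interval of the change of -0.40 to 0.76 (limma adjusted p = 0.606). Its mean level of 8.32 was not far above the threshold for dim probes (7.76). Of the related IL-11 pair, the receptor gene Il11ra1 had a change of -0.59 ± 0.27, with all tolerated values below all syngeneic values (limma adjusted p = 0.166), and Il11 was dim and not tested. Il10ra encodes the chain that binds the anti-inflammatory cytokine IL-10. It measured 10.42, 10.54 and 10.12 in tolerated grafts, against 8.30, 9.10 and 9.52 in syngeneic grafts, a difference of 2.61-fold (95% interval 1.46 to 4.66) (limma adjusted p = 0.0340).

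**Figure D3:**
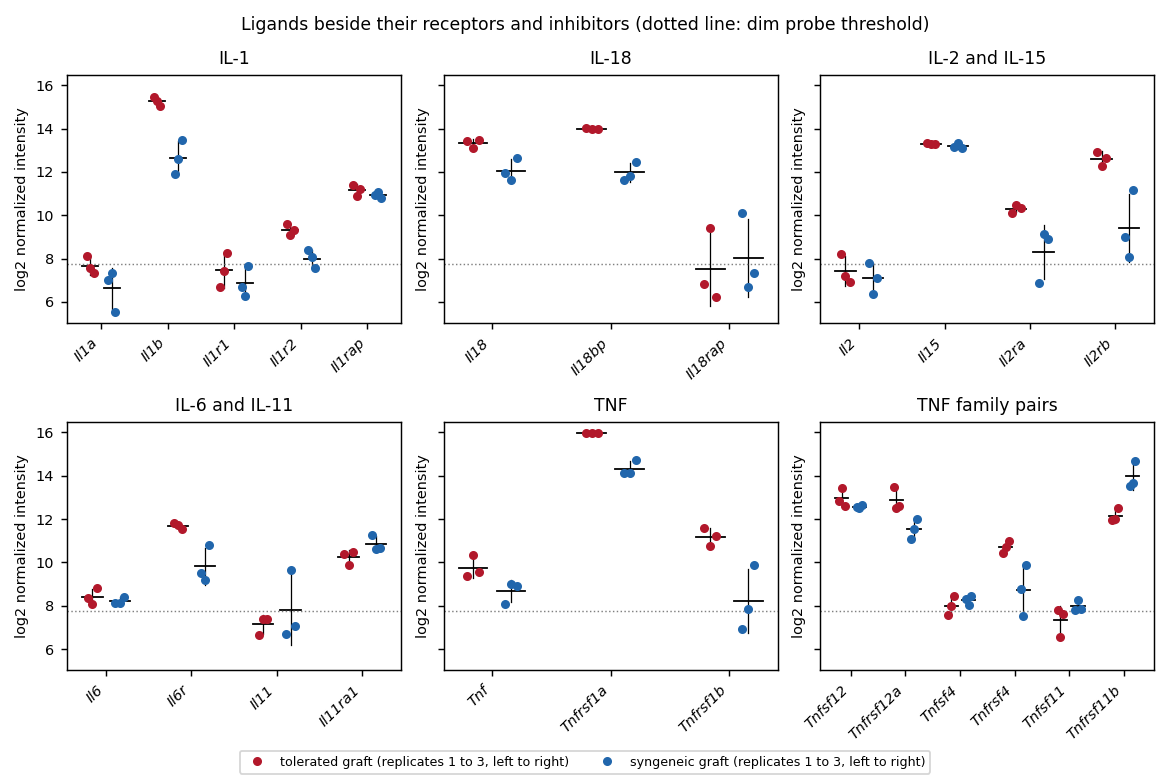
Log2 normalized intensity of ligands beside their receptors and inhibitors, by array (tolerated grafts in red left of syngeneic grafts in blue, bar for the mean, line for the SD, n = 3 each); the dotted line is the threshold for dim probes at 7.76. Il15 and Il6 overlap between groups while Il2rb and Il6r do not.

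Other T cell growth factors and receptors did not pass the test. Il7, a survival factor for T cells, measured 10.35, 9.88 and 10.08 in tolerated grafts, against 7.86, 8.70 and 9.59 in syngeneic grafts (change 1.39 ± 0.45, limma adjusted p = 0.0715). Il21r and Il9r, receptors that pair with the common gamma chain, had changes of 2.02 ± 0.66 and 1.48 ± 0.51, with no overlap between groups in either (limma adjusted p = 0.0741 and 0.0839). Il13, a type 2 cytokine, had a change of 1.09 ± 0.46 with syngeneic replicate 3 among the tolerated values (limma adjusted p = 0.135). Its receptor genes Il13ra1 and Il13ra2 had changes of -0.48 ± 0.91 and 0.11 ± 0.32 (limma adjusted p = 0.733 and 0.834). Il17re, a receptor chain of the IL-17 family that epithelial cells carry, had a change of 0.17 ± 0.26 (limma adjusted p = 0.676).

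In the group of receptors that share the common beta chain, the shared chain was lower. Csf2rb encodes this chain, which signals for GM-CSF, IL-3 and IL-5. It measured 8.53, 7.86 and 8.00 in tolerated grafts, against 11.04, 10.74 and 10.20 in syngeneic grafts. The tolerated values lay near the threshold for dim probes (7.76). All tolerated grafts lay below all syngeneic grafts, and the mean was lower by 5.78-fold (95% interval 3.49 to 9.59) (log2 change -2.53 ± 0.30, limma adjusted p = 0.00605). Il5ra, the chain specific to IL-5, measured 7.69, 6.98 and 7.78 in tolerated grafts, against 8.27, 8.54 and 8.34 in syngeneic grafts, also without overlap, and just missed the threshold (change -0.90 ± 0.26, limma adjusted p = 0.0505). Its tolerated mean of 7.48 lay under the threshold for dim probes, and without the filter on dim probes its limma adjusted p was 0.0778. Il3ra, the chain specific to IL-3, had a change of 0.41 ± 0.29 and overlapping groups (limma adjusted p = 0.353). Of marker lists for cells known to carry this chain, the 10 tested macrophage markers were all higher. The summed neutrophil markers, of which 1 of 3 passed, ran from 9866.36 to 15188.4 in tolerated grafts and from 4747.68 to 8074.96 in syngeneic grafts. The summed mast cell markers ran from 2729.37 to 5866.67 in tolerated grafts and from 1069.74 to 6210.7 in syngeneic grafts. On syngeneic replicate 3 the brightest mast cell marker was Mcpt1 at 12.34, followed by Tpsab1 at 8.96, so that sum rested mostly on Mcpt1. The part of these cell types in the Csf2rb value was not tested. Csf1, the macrophage growth factor, measured 8.50, 8.07 and 8.79 in tolerated grafts, against 8.35, 9.08 and 8.48 in syngeneic grafts, with a change of -0.18 ± 0.29 (limma adjusted p = 0.687), and Csf3, the neutrophil growth factor, was dim and not tested, at 7.74, 7.09 and 7.82 in tolerated grafts, against 8.07, 7.22 and 6.81 in syngeneic grafts.

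The 13 dim members had changes between -0.66 and 1.42. The highest was Il22ra2, which encodes a soluble protein that binds IL-22, followed by Il23a at 1.23, Il1a at 1.04 and Il12a at 0.95, ligand chains of inflammatory cytokines. Il12b had 0.32 and Il3 0.27. In a fit without the filter, Il23a had the lowest adjusted p of the 13 at 0.0707, so none passed there by limma.

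One syngeneic graft weighed on many of these values. Syngeneic replicate 3 was the highest syngeneic array in 9 of the 10 members called higher (90%), against 81.7% of the 2490 probes called higher. The receptors averaged 0.38, 0.30 and 0.35 relative to each gene's 6-array mean in tolerated replicates 1 to 3, against -0.42, -0.71 and 0.10 in syngeneic replicates 1 to 3. The ligands averaged 0.34, 0.39 and 0.55 in tolerated grafts, against -0.76, -0.37 and -0.15 in syngeneic grafts. Beside them the macrophage list averaged 1.68, 1.48 and 1.56 in tolerated grafts, against -2.18, -2.07 and -0.47 in syngeneic grafts, and the T cell list 0.79, 1.28 and 1.34, against -2.05, -1.31 and -0.05. Before normalization, syngeneic replicate 3 was also the brightest syngeneic array, at a median raw intensity of 707. The parts of infiltrating cells and of brightness in the position of this graft were not tested.

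**Figure D4:**
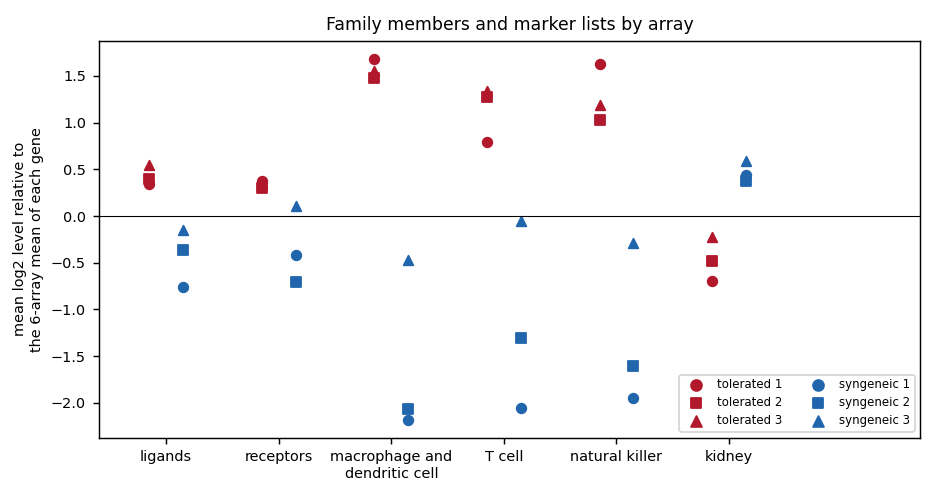
Mean log2 level of ligands, receptors and 4 marker lists on each array, relative to the 6-array mean of each gene; red symbols left are tolerated grafts and blue symbols right are syngeneic grafts, with a circle, square and triangle for replicates 1 to 3. The blue triangle, syngeneic replicate 3, is the syngeneic array closest to the tolerated ones among ligands, receptors and the macrophage, T cell and natural killer lists, but not in the kidney list.

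Each array was left out in turn, with normalization, filter and fit repeated. Il1b, Il18bp, Tnfrsf1a and Csf2rb passed in all 6 of these fits. The calls of Il18, Il2rb, Il6r, Il10ra, Tnfrsf1b and Tnfrsf12a held only when syngeneic replicate 3 was the array left out, where the log2 changes were 1.55, 4.04, 2.34, 1.64, 3.77 and 1.56. Their adjusted p reached 0.0951, 0.103, 0.092, 0.0989, 0.115 and 0.115 in the other fits. Il1r2 passed without syngeneic replicate 1 or 3 and Tnfrsf11b without tolerated replicate 3 or syngeneic replicate 1 or 3, with adjusted p up to 0.069 and 0.0692 otherwise. Without syngeneic replicate 3, 6 further members passed: Il21r at 2.78, Tnfrsf4 at 2.54, Il9r at 1.96, Il7 at 1.81, Tnfsf10 at 1.73 and Il13 at 1.60. Il2ra passed without syngeneic replicate 1, at 1.33, and Il13ra1 without syngeneic replicate 2, at -1.62. The mean level of Il13ra1 over all arrays (7.78) barely passed the threshold for dim probes (7.76), and it was tested in only 4 of the 6 fits. Its tolerated values of 7.69, 7.54 and 7.37 all lay under that threshold. No called member changed sign in any of the 6 fits. With arrays scaled to equal medians in place of quantile normalization, Il18 and Tnfrsf12a no longer passed (adjusted p = 0.0603 and 0.0638), while Il5ra, Il2ra, Tnfrsf4 and Tnfsf15 did (0.0271, 0.0466, 0.0466 and 0.0470). Without the filter on dim probes Il10ra, Tnfrsf1b and Tnfrsf12a no longer passed (0.0502, 0.0508 and 0.0609).

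Genes downstream of these receptors were read from a list of 54 signalling genes, 23 of which had a named probe, all of them tested. Of the 23, 11 were higher, 0 were lower and 12 did not pass by limma, with a median change of 0.83. Among named genes 15.5% were higher and 17.2% lower, and among all tested probes 12.4% and 12.8%. Of the 11 that passed, those with the largest changes were Birc3, an inhibitor of apoptosis that NF-kB induces, at 3.29 ± 0.66 (limma adjusted p = 0.0207), and Socs3, the feedback inhibitor of IL-6 type signalling, at 2.77 ± 0.48 (limma adjusted p = 0.0146). Stat4, which acts behind IL-12, had a change of 3.14 ± 0.97 with groups that did not overlap and missed the threshold (limma adjusted p = 0.0634). Casp1, the protease that matures IL-1 beta and IL-18, rose beside both ligands, with 12.99, 12.86 and 12.87 in tolerated grafts, against 10.64, 10.89 and 11.69 in syngeneic grafts (change 1.83 ± 0.30, limma adjusted p = 0.0126). Nfkb2, a subunit of NF-kB, was higher by 1.53 ± 0.27 and its inhibitor Nfkbie by 1.10 ± 0.26 (limma adjusted p = 0.0146 and 0.0317). Ptpn6, the phosphatase SHP-1 of blood cells, was higher by 1.33 ± 0.20, Jak3, the kinase of the common gamma chain, by 1.07 ± 0.30, and Stat3, which acts behind IL-6 and IL-10, by 0.90 ± 0.23 (limma adjusted p = 0.0112, 0.0476 and 0.0380). Ptpn6 was the 1 gene of the 11 that passed in all 6 fits with an array left out. Casp1 and Socs3 lost the call without syngeneic replicate 2 (adjusted p = 0.0525 and 0.0577), Stat3 lost it whichever array was left out, and the other 7 held it only without syngeneic replicate 3, where Birc3 reached 4.03. With arrays scaled to equal medians Jak3, Stat3, Nfkbie, Birc2 and Casp8 no longer passed (adjusted p = 0.0946, 0.0790, 0.0526, 0.0844 and 0.0647), nor did Jak3, Stat3 and Casp8 without the filter on dim probes (0.0711, 0.0615 and 0.0711).

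Members of the same families under other names gave 20 named genes of 37 listed, 17 of them tested. Of these 17, 6 were higher, 3 were lower and 8 did not pass by limma, with a median change of 0.36. Any call was made in 32.7% of named genes and 25.2% of all tested probes. Of the TNF family genes in this list, those higher were Cd40lg, the T cell ligand that activates B cells and macrophages, by 3.19 ± 0.49, Ltb, a lymphotoxin chain, by 2.79 ± 0.71, Faslg, a death ligand, by 1.99 ± 0.45, and Ltbr, the receptor of lymphotoxin, by 0.90 ± 0.18 (limma adjusted p = 0.0110, 0.0382, 0.0285 and 0.0197). Lta, the other lymphotoxin chain, had a change of -0.80 ± 0.69 and Fas, the receptor of Faslg, one of 1.77 ± 0.71, and neither passed (limma adjusted p = 0.441 and 0.125). Cntf, a cytokine of the IL-6 type, was higher by 1.62 ± 0.23, and Ctf1, cardiotrophin of the same type, was lower with a change of -1.49 ± 0.20 (limma adjusted p = 0.00885 and 0.00783).

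The largest decreases of that list were in hormone receptors of the same receptor class. Prlr, the prolactin receptor, measured 10.48, 9.37 and 10.74 in tolerated grafts, against 14.94, 15.20 and 14.81 in syngeneic grafts. The groups were far apart, with a change of -4.78 ± 0.38 (limma adjusted p = 0.00363). Ghr, the growth hormone receptor, measured 9.99, 8.87 and 9.87 in tolerated grafts, against 13.06, 13.19 and 12.74 in syngeneic grafts (change -3.42 ± 0.34, limma adjusted p = 0.00462). Beside them the tubule markers Slc34a1 and Lrp2 had changes of -2.58 ± 0.22 and -2.78 ± 0.31, while Umod and Slc12a1 had -0.40 ± 0.19 and 0.27 ± 0.27, and the part of tubule content in the receptor values was not tested. Of the 9 genes called from this list, Prlr, Ghr, Cd40lg, Cntf and Ctf1 passed in all 6 leave-one-out fits and 4 only without syngeneic replicate 3, where Ltb reached 3.61. With arrays scaled to equal medians Ltbr had a change of 0.49 and no longer passed, nor did Crlf2, a receptor chain of the cytokine TSLP (adjusted p = 0.127 and 0.163), and without the filter on dim probes Ltb and Crlf2 did not (0.0521 and 0.0660).

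**Figure D5:**
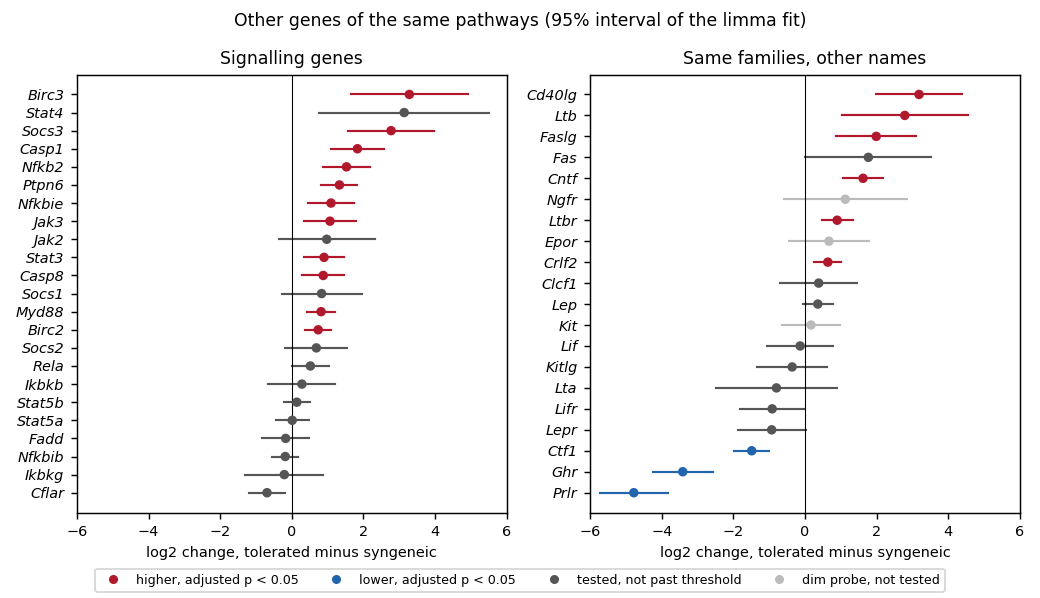
Log2 change (tolerated minus syngeneic) with the 95% interval of the limma fit for 23 signalling genes on the left and 20 genes of the same families under other names on the right; red marks higher, blue lower, dark grey no call and light grey dim probes not tested. On the left no gene passed as lower, and on the right Prlr at -4.78 and Ghr at -3.42 lie farthest to the left.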

How the data were processed

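RNA of 6 kidney transplant samples was hybridised to the Applied Biosystems rat genome survey array, 1 array per sample; 0.5 µg of RNA per sample was amplified, per the labels' protocols. The authors deposited raw probe intensity and, in the series matrix, log2 values; the sources used here do not say how the scanner signal was corrected or the log2 values made. Intensities were quantile normalized and taken to log2 (floor 1, not reached), and differed from the deposited log2 values by at most 0.0638. No column lacked a sample of the series.

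Probes with a mean level over 6 arrays above the lower quartile (7.76) were tested, 20142 of 26857. Groups, taken from the titles, were set against each other by lmFit and eBayes of limma 3.58.1 (R 4.3.3), two-sided and without covariates. P-values of all tested probes were adjusted by Benjamini-Hochberg, and the threshold was 0.05. Errors are standard errors of that fit and intervals its 95% confidence intervals; 3 arrays per group limit the precision. Statistics were tested on simulated data.

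Genes were named from GEO's platform annotation (6104 probes with 1 symbol, 70 with several, 20683 with none listed), and 6081 symbols were matched to RefSeq's GRCr8 table. That annotation can be old, and no build of the probe design was stated in the sources used here. The members, gene lists and marker lists were chosen with earlier results of these data known. Full values were given for members past the threshold and for a list of much studied members, and up to 8 called genes of each other list were named by size of change. Stat4, Lta, Fas, Birc2, Casp8, Myd88 and Crlf2 fall outside that rule and were chosen after their values were seen. Alternatives were scaling to equal medians, the deposited log2 values, no filter, a filter at the median, a replicate block, the mean of a gene's probes and leaving out each array. Dim members were not tested, and levels of different probes were not compared.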

Additional observations from a re-analysis of the deposited data

How the results depend on the processing

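Counts of calls moved most with the arrays in the fit. Leaving out each array in turn gave 1610 to 6046 changed probes (5075 with all arrays), 4 to 18 changed members (12), 3 to 16 members higher (10), 1 to 2 lower (2), 1 to 5 ligands (2), 2 to 12 receptors (9) and 6 to 24 other pathway genes (20). The highest counts came without syngeneic replicate 3, and no called member reversed. The median change ran from 0.791 to 1.09 in ligands and from 0.680 to 1.29 in receptors over these fits. Without the filter on dim probes the medians were 0.376 for ligands and 0.492 for receptors. Testing only probes above the median level gave 5 ligands and a receptor median of 1.36. Arrays scaled to equal medians shifted the median change of all probes by -0.15, gave 1735 probes higher and 2886 lower (37.5% higher, against 49.1%, 2490 higher and 2585 lower, with quantile normalization), 13 other pathway genes and a receptor median of 1.26.

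Deviations of same-numbered samples from their group means correlated at -0.00759, 0.0099 and 0.0481. Samples with different numbers were not compared in this way, so these values do not settle whether the numbers pair the samples. A fit with the replicate number as a replicate block called 1886 probes, 6 members, 4 of them higher, 1 ligand, 4 receptors and 7 other pathway genes. The deposited log2 values kept 37 of 38 tested members on their side of the threshold, the exception being Il5ra, which passed there. They differed from the values used here by at most 0.0638, so this setting was close to a repeat. Averaging a gene's probes could not alter the levels of members, as each had 1 probe. The files used here give no detection call, so how far dim probes stood above background is unknown.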
